A study of Rattus norvegicus with 5 samples.

Results

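The genes described here are 10 genes known for their abundance in the eye lens, read in RNA sequencing libraries of rat cornea: Cryaa, Cryab, Cryba1, Cryba2, Cryba4, Crybb1, Crybb2, Crybb3, Crygs and Bfsp1. They were taken by symbol from a gene table of 20339 genes, and all 10 were found there. By the same choice, Cryab, which many tissues express, was kept apart from 9 members treated as lens-restricted, and wild-type library 1 was set against the other libraries. The libraries are 2 from transgenic P1 hMR rats, which carry and overexpress human NR3C2, the gene of the mineralocorticoid receptor, and 3 from wild-type rats. All rats were male Sprague-Dawley animals aged 6 months; the promoter that drives the transgene, and whether 1 or both corneas of a rat were used, are not given in the sources used here.

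Crystallins are the soluble proteins that fill lens fibre cells and give the lens its refractive power. Alpha crystallins (Cryaa, Cryab) belong to the small heat shock proteins and keep other proteins from aggregating, while beta and gamma crystallins share a structural fold of their own. Bfsp1, or filensin, forms the beaded filament of the fibre cell together with phakinin (Bfsp2). The cornea is transparent through other means and has its own abundant enzymes, such as Aldh3a1, so lens crystallins are not among its defining genes.

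Sequencing depth lay between 20874010 and 30449675 gene counts. Levels are given as CPM, counts scaled to a common library size. A cornea named with a number stands for a library, whether or not it holds a single cornea. The corneal epithelial keratin Krt12 was at 32247 CPM or more in every library. Kera and Slc4a11, which mark stroma and endothelium, were at 144 CPM or more and 227 CPM or more. Human NR3C2 had 1094 and 1146 counts in the transgenic libraries and 0, 0 and 0 counts in the wild-type ones, as the labels say. It was also the 1 gene of 13304 tested that passed the edgeR quasi-likelihood test between genotypes (0.00752% of genes tested). In bulk tissue, fewer cells of a type and less RNA per cell cannot be told apart, which holds for every level below.

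RefSeq sequence before the annotated start (build GRCr8) was found for 9 of the 10 members. Stretches of 5 of them are shown because they let members that shared a profile (Cryaa, Cryba1, Cryba4 and Crygs) be set beside one that did not (Bfsp1). Each line ends at the base before the start. Capitals mark TGCTGAC, a core of the element that Maf factors of the lens bind, and TATAAA, the TATA box. The stretches lie at chr20:9784751-9784910 (plus strand) for Cryaa, chr10:63112818-63112937 (minus strand) for Cryba1, chr12:50046889-50047048 (plus strand) for Cryba4, chr11:91711635-91711754 (plus strand) for Crygs and chr3:151682838-151682957 (minus strand) for Bfsp1.
Cryaa: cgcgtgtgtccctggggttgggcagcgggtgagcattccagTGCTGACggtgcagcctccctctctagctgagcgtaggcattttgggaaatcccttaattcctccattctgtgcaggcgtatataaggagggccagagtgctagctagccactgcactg
Cryba1: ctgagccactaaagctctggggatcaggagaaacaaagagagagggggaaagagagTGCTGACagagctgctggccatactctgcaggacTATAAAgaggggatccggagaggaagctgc
Cryba4: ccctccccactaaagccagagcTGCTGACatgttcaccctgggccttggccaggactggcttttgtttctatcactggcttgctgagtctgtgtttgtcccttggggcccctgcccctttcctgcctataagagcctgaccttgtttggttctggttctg
Crygs: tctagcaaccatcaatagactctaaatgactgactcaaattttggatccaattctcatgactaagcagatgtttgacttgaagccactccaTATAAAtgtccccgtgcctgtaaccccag
Bfsp1: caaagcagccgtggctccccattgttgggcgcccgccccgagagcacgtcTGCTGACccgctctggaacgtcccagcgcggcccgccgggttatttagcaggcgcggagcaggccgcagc
TGCTGAC, searched on both strands of windows from 250 bases before to 50 bases after the start, was present in 4 of the 9 genes (Cryaa, Cryba1, Cryba4 and Bfsp1), against 4.44% of all 33469 windows of that length. Counted from the start, with -1 the base before it, it ran from -119 to -113 in Cryaa, from -64 to -58 in Cryba1 and from -138 to -132 in Cryba4. In Bfsp1 it ran from -70 to -64, although the counts of that gene did not follow those of the other 3. TATAAA, also searched on both strands, was present in Cryba1 (-30 to -25), Cryba2 (-38 to -33) and Crygs (-29 to -24), against 14.2% of all windows. GAANNTTC, the core of the heat shock element, was found in 0 of the 9 genes, against 8.59% of windows. These are matches of letters only.

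The 8 lens crystallins other than Cryab were read at low levels in every library, with one profile across libraries. Summed over the 8 genes, the libraries gave 14.1 and 5.73 CPM in transgenic corneas 1 and 2 and 145, 30.4 and 21.0 CPM in wild-type corneas 1 to 3. Wild-type cornea 1 therefore stood at 25.4 times the lowest library, and the other 2 wild-type corneas at 5.30 and 3.67 times. Transgenic cornea 1 lay at 2.46 times the other transgenic cornea. The sums rest on 366 and 180 counts in the transgenic libraries and on 4029, 621 and 462 counts in the wild-type ones.

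**Figure D1:**
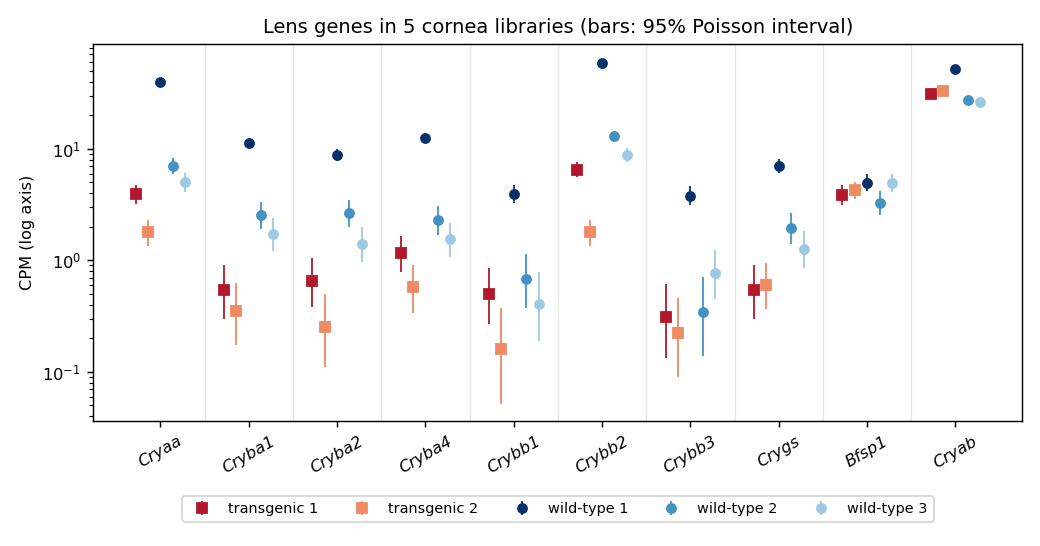
CPM (log axis) of the 10 members in each library, with transgenic corneas as squares and wild-type corneas as circles; bars are exact 95% Poisson intervals and cover counting error only. Wild-type cornea 1 is the highest point for each of the 8 lens crystallins on the left, while Bfsp1 lies between 3.279 and 4.98 CPM in all libraries and Cryab between 26.3 and 52.0 CPM.

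Cryaa, the alpha crystallin that is found mainly in lens, had 3.89 and 1.78 CPM in transgenic corneas 1 and 2, against 40.0, 6.998 and 5.01 CPM in wild-type corneas 1 to 3. Wild-type cornea 1 was high and both transgenic corneas lay below all 3 wild-type values. The expected counts behind these values were 101 and 56 in the transgenic libraries and 1109, 143 and 110 in the wild-type ones.

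Crybb2, a basic beta crystallin and a main protein of the adult lens, had 6.52 and 1.78 CPM in transgenic corneas and 58.1, 12.9 and 8.88 CPM in wild-type corneas 1 to 3. Among the 9 lens-restricted members it had the most counts, 1610 of them in wild-type cornea 1. The groups did not overlap, and transgenic corneas 1 and 2 differed from each other by more than did wild-type corneas 2 and 3.

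Crybb1 and Crybb3, also basic beta crystallins, were the 2 members with the fewest counts. Crybb1 had 0.501 and 0.159 CPM in transgenic corneas and 3.94, 0.685 and 0.410 CPM in wild-type ones, so transgenic cornea 1 lay above wild-type cornea 3. Crybb3 had 0.308 and 0.223 CPM in transgenic corneas and 3.79, 0.343 and 0.774 CPM in wild-type ones. In 4 of these 5 libraries the Crybb3 values rest on 7, 8 or 17 counts, and the intervals of transgenic cornea 1 and wild-type cornea 2 overlap widely.

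The acidic beta crystallins followed the same order of libraries. Cryba1, whose transcript gives 2 proteins, beta A3 and beta A1, from different start codons, had 0.540 and 0.350 CPM in transgenic corneas and 11.3, 2.54 and 1.73 CPM in wild-type ones. Cryba2 had 0.655 and 0.255 CPM in transgenic corneas and 8.81, 2.64 and 1.41 CPM in wild-type ones. For both genes the transgenic values lay under the lowest wild-type value. Cryba4 had 1.16 and 0.573 CPM in transgenic corneas and 12.5, 2.30 and 1.55 CPM in wild-type ones, a smaller gap between transgenic cornea 1 and wild-type cornea 3.

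Crygs, gamma S crystallin, the gamma crystallin of adult fibre cells of the lens cortex, had 0.540 and 0.605 CPM in transgenic corneas and 7.04, 1.96 and 1.27 CPM in wild-type corneas 1 to 3. It is the 1 member of the 8 crystallins in which transgenic cornea 2 was above transgenic cornea 1. The order wild-type 1, wild-type 2, wild-type 3, transgenic 1, transgenic 2, from high to low, was found in 5 of the 8 (Cryaa, Cryba1, Cryba2, Cryba4 and Crybb2) and in 1.33% of all 13304 genes tested.

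Bfsp1 did not share this profile, although it was listed as lens-restricted. It had 3.86 and 4.27 CPM in transgenic corneas and 4.98, 3.279 and 4.96 CPM in wild-type corneas 1 to 3, from 100, 134, 138, 67 and 109 counts in the same order. The groups overlapped, and wild-type cornea 1 was 1.00 times the next highest library. Its partner Bfsp2 had 1.27 and 1.97 CPM in transgenic corneas and 2.49, 1.42 and 1.64 CPM in wild-type ones, again with overlap. Neither beaded filament gene had the order of libraries seen in the crystallins, and sums are given for the 8 crystallins without Bfsp1. With it, the 9 members summed to 17.97 and 9.996 CPM in transgenic corneas and 150.5, 33.7 and 26.0 CPM in wild-type corneas.

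Cryab, the alpha crystallin that muscle, heart, glia and many stressed cells also make, was read at a level that differed much less between libraries. It had 30.7 and 32.9 CPM in transgenic corneas and 52.0, 27.3 and 26.3 CPM in wild-type corneas 1 to 3. Wild-type cornea 1 was again the highest, at 1.58 times the next library, but both transgenic corneas lay above wild-type corneas 2 and 3. Its expected counts, 796.89 and 1031.67 in the transgenic libraries and 1438.61, 557.95 and 577.92 in the wild-type ones, are the only ones among the members that are not whole numbers. Hspb2, a small heat shock gene that lies next to Cryab in RefSeq, is not in the gene table used here and has 15.7 and 14.96 counts in transgenic and 26.5, 12.9 and 15.4 counts in wild-type libraries in the isoform table.

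Wild-type cornea 1 was next set against wild-type corneas 2 and 3, a description of libraries of 1 genotype with no replicate of its own. On pooled scaled counts it was 6.71-fold higher for Cryaa (exact 95% counting interval 5.85 to 7.72) and 5.37-fold higher for Crybb2 (4.84 to 5.97). The smallest ratios among the 8 crystallins were those of Crygs, 4.39 (3.32 to 5.87), and Cryba2, 4.39 (3.42 to 5.69), and the largest that of Crybb1, 7.26 (4.60 to 11.9). For the 8 together it was 5.70 (5.32 to 6.10). The interval of Cryaa lies above that of Cryba2, so by counting error alone these 2 ratios differ. Cryab was 1.94-fold higher (1.79 to 2.10), and Bfsp1 1.2004-fold (0.954 to 1.51), an interval that includes 1.

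**Figure D2:**
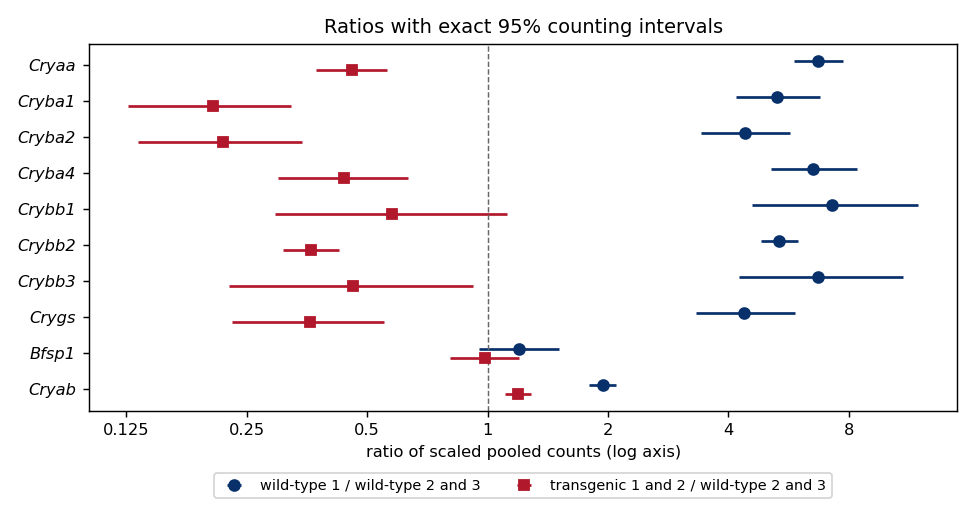
Ratio of scaled pooled counts for each member (log axis), wild-type cornea 1 over wild-type corneas 2 and 3 (circles) and transgenic corneas over wild-type corneas 2 and 3 (squares), with exact 95% intervals for counting error. The 8 lens crystallins lie between 4.39 and 7.26 for wild-type cornea 1 and between 0.205 and 0.579 for the transgenic corneas, while Bfsp1 lies near 1 in both.

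Among the 13304 genes tested, few others set wild-type cornea 1 apart to this degree. It was at least 2-fold above each other library in 33 of 13304 genes tested (0.248%). All 8 lens crystallins were among them, or 24.2% of the 33. Genes too low in most libraries to be tested are in none of the counts or shares given here. Ckm, a muscle gene, was left out in this way, with 2.60 CPM in wild-type cornea 1 and at most 0.127 CPM elsewhere. The share of genes set apart this way was 0.0827% for transgenic cornea 1, 0.428% for transgenic cornea 2, 0.105% for wild-type cornea 2 and 0.0376% for wild-type cornea 3. Bfsp1 and Cryab were not, although wild-type cornea 1 was the highest library for all 10 members (18.8% of all genes tested, against 15.2% and 23.1% for transgenic corneas 1 and 2 and 24.9% and 17.9% for wild-type corneas 2 and 3). Krt23, a keratin, was among the other 25, at 0.694 and 3.18 CPM in transgenic corneas and 16.5, 1.52 and 1.91 CPM in wild-type ones. So was Nr4a1, an immediate-early gene, at 2.74 and 2.71 CPM in transgenic corneas and 9.93, 1.81 and 0.638 CPM in wild-type ones; both were chosen after their values were seen. The member set and wild-type cornea 1 were picked with such values known, so these counts describe the libraries and test nothing.

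The proportions among the 8 crystallins varied far less than their sum. In transgenic corneas 1 and 2, Cryaa was 27.6% (23.1% to 32.5%) and 31.1% (24.4% to 38.4%) of the sum, with exact 95% binomial limits in parentheses. In wild-type corneas 1 to 3 its share was 27.5% (26.2% to 28.9%), 23.03% (19.8% to 26.5%) and 23.8% (19.996% to 27.96%). All 5 intervals overlap, and the lowest and highest shares differ by a small fraction of the 25.4-fold range of the sum. Crybb2 took 46.2% and 31.1% in transgenic corneas and 40.0%, 42.5% and 42.2% in wild-type corneas 1 to 3. Its intervals in the transgenic corneas, 41.0% to 51.4% and 24.4% to 38.4%, do not overlap, and that of transgenic cornea 2 ends just under the lower bound of wild-type cornea 1 (38.4432%).

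The rarer crystallins had no common pattern of shares. Crygs was 3.83% and 10.6% of the sum in transgenic corneas 1 and 2, against 4.84%, 6.44% and 6.06% in wild-type corneas. Cryba1 was 3.83% and 6.11% in transgenic corneas and 7.74%, 8.37% and 8.23% in wild-type ones; the interval of transgenic cornea 1 (2.11% to 6.33%) lies below that of wild-type cornea 1 (6.94% to 8.61%). Cryba2 was 4.64% and 4.44% in transgenic corneas and 6.06%, 8.70% and 6.71% in wild-type ones. Crybb3 was 2.19% and 3.89% in transgenic corneas and 2.61%, 1.13% and 3.68% in wild-type ones, the wider range being in the wild-type group. In transgenic libraries the shares of these 4 genes rest on 7 to 19 counts each, and intervals cover counting error only.

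**Figure D3:**
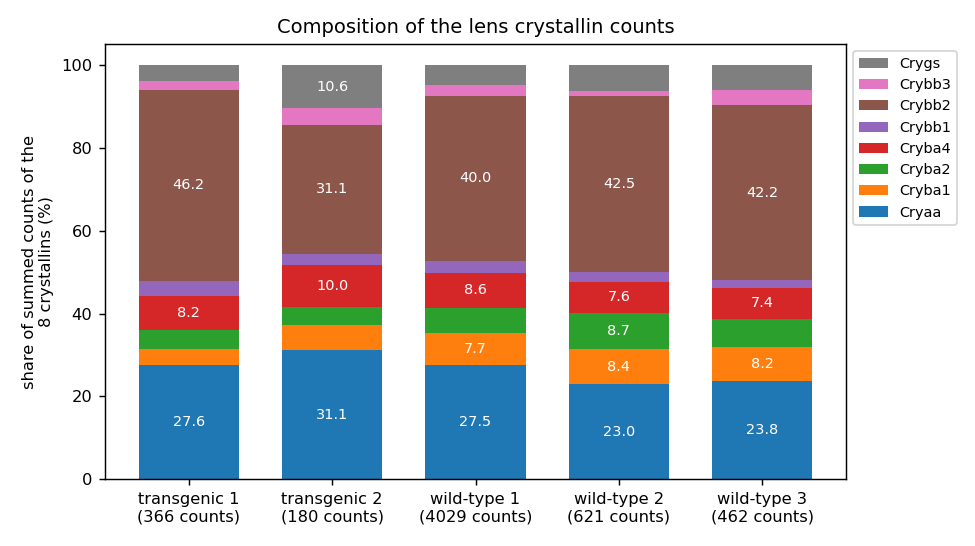
Share of each of the 8 lens crystallins in their summed counts, by library, with transgenic corneas on the left; the count behind each bar is given under it. Cryaa and Crybb2 make up most of every bar, with Crybb2 at 46.2% and 31.1% in transgenic corneas and between 40.0% and 42.5% in wild-type ones.

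Between genotypes, none of the 10 members passed the edgeR quasi-likelihood test. All 10 log2 fold changes of transgenic over wild-type were below 0 (51.8% of all genes tested), and the median of the 9 lens-restricted members was -2.65, against -0.01 over all genes tested. Adjusted over all genes, 0 members passed (0.00752% of all genes), while 3 had an unadjusted p under 0.05 in the edgeR fit (6.32% of all genes in either direction and 1.93% in this direction): Cryba1, Cryba2 and Crygs. In 7 of the 8 lens crystallins, all but Crybb1, both transgenic values lay below every wild-type value (10.7% of all genes tested). All 10 members passed the filter on low counts, but 4 of the 8 crystallins (Cryba1, Cryba2, Crybb1 and Crybb3) did not reach its cutoff of 0.381 CPM in both transgenic libraries. Crybb3 reached it in wild-type corneas 1 and 3 alone. Cryba1, Cryba2 and Crybb1 reached it in every wild-type cornea but, of the transgenic ones, in cornea 1 alone. These 4 genes were thus kept through the group in which they are high. Cryba1 and Cryba2, with an unadjusted edgeR p under 0.05, are among them.

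Cryba1 averaged 0.445 ± 0.134 CPM in transgenic corneas and 5.18 ± 5.29 CPM in wild-type corneas (SD, n = 2 and 3), with a log2 fold change of -3.56 ± 1.15 (SE, edgeR adjusted p = 0.741). Crygs averaged 0.572 ± 0.0460 CPM in transgenic and 3.42 ± 3.15 CPM in wild-type corneas, with -2.58 ± 0.86 (edgeR adjusted p = 0.731). For both, the SD within wild-type was about as large as the mean there. Cryaa had -2.64 ± 1.34 and Crybb2 -2.72 ± 1.30, with edgeR adjusted p-values of 0.837 and 0.835. Cryab and Bfsp1 were near 0, at -0.15 ± 0.35 and -0.12 ± 0.26 (edgeR adjusted p = 0.962 and 0.959). A different tool, DESeq2, called Cryba2 alone among the members (log2 fold change -3.25, DESeq2 adjusted p = 0.0139), with 0.391% of all genes called. For Cryba2 edgeR gave -3.27 ± 1.05 and an adjusted p of 0.731. Cryba2 is among the genes kept by the filter through the group in which they are high.

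Without wild-type cornea 1 the crystallin differences were smaller. Cryaa then had a log2 fold change of -1.08 ± 0.39, Cryba1 -2.26 ± 0.48 and Crybb2 -1.40 ± 0.68. Of 9 members that still passed the filter, 8 were below 0 and none passed the edgeR test over all genes (6 of 13088 genes passed, 0.0458%). Cryba1 came closest, with an edgeR adjusted p of 0.253. Cryab had the opposite sign, at 0.25 ± 0.13 (edgeR adjusted p = 0.922), and Bfsp1 was at -0.01 ± 0.29. Unadjusted p-values under 0.05 were found for 5 members without wild-type cornea 1 (5.98% of all genes, 1.17% being lower in transgenic corneas). There were 4 without wild-type cornea 2 (4.28% of all genes) and 5 without wild-type cornea 3 (10.9% of all genes). Leaving out transgenic cornea 1 or 2, so that 1 transgenic library is assumed to vary like the others, gave 0 members, against 8.22% and 3.41% of all genes.

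**Figure D4:**
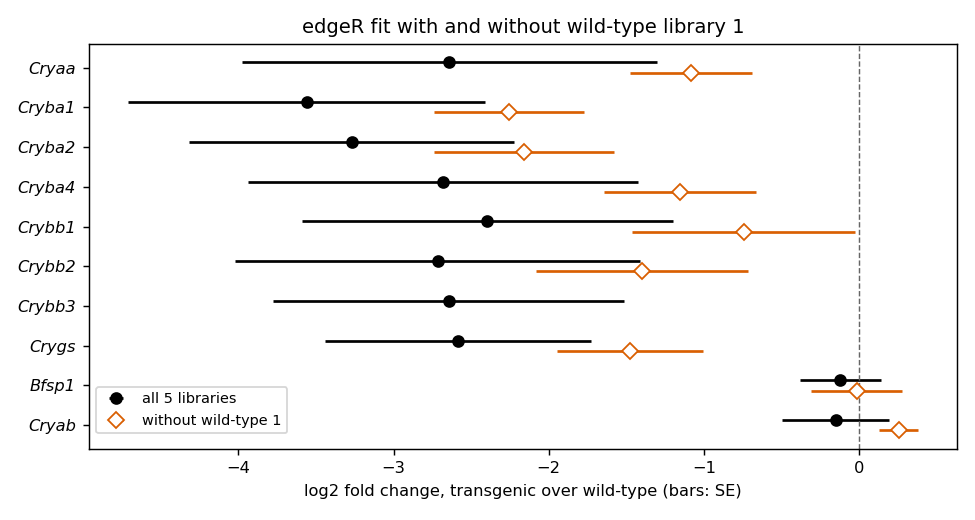
Log2 fold change of transgenic over wild-type corneas for each member (bars are SE of the edgeR fit), with all 5 libraries (filled circles) and without wild-type cornea 1 (open diamonds); Crybb3 has no diamond, since it then failed the filter on low counts. Without wild-type cornea 1 the crystallins lie nearer to 0 (Cryaa at -1.08 in place of -2.64) and Cryab lies above 0, at 0.25.

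Against wild-type corneas 2 and 3 alone, the 8 lens crystallins together were at 0.373 of their pooled level in the transgenic corneas (exact 95% counting interval 0.336 to 0.413). Single genes lay between 0.205 for Cryba1 (0.126 to 0.323) and 0.579 for Crybb1 (0.294 to 1.12), whose interval includes 1. Bfsp1 was at 0.983 (0.805 to 1.202) and Cryab at 1.19 (1.10 to 1.28). Both transgenic values lay below wild-type corneas 2 and 3 in 7 of the 8 crystallins (17.1% of all genes tested). These intervals leave out the spread between rats, which the 2.46-fold difference between the transgenic corneas shows to be larger than counting error.

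The mean of log2(CPM + 0.5) over the 9 lens-restricted members was 0.87 and 0.35 in transgenic corneas 1 and 2 and 3.48, 1.62 and 1.37 in wild-type corneas 1 to 3. This score was lower in both transgenic corneas, by a difference of -1.55 between group means, or -0.89 without wild-type cornea 1. Members were chosen with these values known, so no test is given for the score.

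Other genes of the lens fibre cell were mostly at or near 0. The list had 18 genes, of which 17 were in the table, 16 had a count above 0 and 4 passed the filter (Bfsp2, Gja3, Grifin and Lgsn); 0 of the 4 passed the edgeR test over all genes, 3 had a log2 fold change below 0 and the median was -0.21. Grifin, a galectin-related protein of the lens, was the member of the list that followed the crystallins. It had 0.193 and 0.0955 CPM in transgenic corneas and 4.44, 1.03 and 0.455 CPM in wild-type corneas 1 to 3 (log2 fold change -3.79 ± 1.22, edgeR adjusted p = 0.703). The groups did not overlap, and wild-type cornea 1 was 4.32 times the next library. Both transgenic values, from 5 and 3 counts, lay under the filter cutoff of 0.381 CPM. Grifin was thus kept through the group in which it is high. The 5 gamma crystallins of the A to F cluster that are in the table (Cryga, Crygb, Crygc, Crygd and Crygf) summed to 10 and 11 counts in transgenic libraries and to 66, 4 and 7 counts in wild-type libraries 1 to 3. Wild-type library 1 was the highest, as for the crystallins above. On these counts, which are not scaled for depth, the transgenic libraries lay above wild-type libraries 2 and 3, unlike in the summed crystallins. The transgenic libraries were sequenced more deeply than those 2, however. Cryga alone gave 8 and 4 of the transgenic counts, and all these counts are few.

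Among membrane genes of lens fibres, Mip, the lens aquaporin, had 0 and 3 counts in transgenic libraries and 6, 0 and 2 counts in wild-type ones, and Lim2, a fibre membrane protein, 0 and 2 counts in transgenic libraries and 2, 1 and 0 counts in wild-type ones. Gja3, a connexin of lens fibres, had 0.925 and 0.509 CPM in transgenic corneas and 0.614, 0.489 and 0.273 CPM in wild-type ones, with overlap. Lgsn (lengsin), a glutamine synthetase-like lens protein, had 2.16 and 2.61 CPM in transgenic corneas and 2.74, 2.94 and 2.73 CPM in wild-type ones (log2 fold change -0.23 ± 0.28, edgeR adjusted p = 0.912), without overlap but with a small difference. Of the 16 genes of the list with counts, 11 were highest in wild-type cornea 1 (18.8% of all genes tested), most of them on few counts. At these counts a difference in Mip or Lim2 was not detectable. Among other genes of the list, Crygn, Lenep, Dnase2b, Birc7 and Lctl had at most 13 counts in any library.

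Transcription factors and other regulators of lens development varied in several orders. Of 10 listed, 9 were in the table and 6 were tested; 3 had log2 fold changes above 0 and 3 below, with 0 called by edgeR. Of 8 with counts, 4 were highest in wild-type cornea 1 (18.8% of all genes tested), 2 in wild-type cornea 2 and 1 in each transgenic cornea. Pitx3 had 1 and 4 counts in transgenic libraries and 8, 1 and 0 counts in wild-type ones, and Hsf4 had 1.04 and 1.43 CPM in transgenic corneas and 1.55, 0.832 and 0.956 CPM in wild-type ones, both highest in wild-type cornea 1. Pax6, which the corneal epithelium itself needs, had 477 and 468 CPM in transgenic corneas and 499, 518 and 474 CPM in wild-type ones. Maf, whose protein binds elements with TGCTGAC, had 22.9 and 17.6 CPM in transgenic corneas and 16.9, 16.0 and 18.6 CPM in wild-type ones (log2 fold change 0.24 ± 0.15, edgeR adjusted p = 0.853). Six3, a homeobox factor of the early eye, had 5.63 and 6.40 CPM in transgenic corneas and 4.77, 2.74 and 4.64 CPM in wild-type ones (edgeR adjusted p = 0.810). Foxe3, a factor of the lens epithelium, had 0 counts in all 5 libraries, and Prox1, which drives fibre differentiation, at most 0.217 CPM.

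The relatives of Cryab among small heat shock genes and their partners gave 7 tested genes of 10 listed, 5 with a log2 fold change above 0, 2 below and 0 called by edgeR. Hspb1 had 309 and 351 CPM in transgenic corneas and 270 (270.1), 305 and 270 (270.1) CPM in wild-type corneas 1 to 3 (edgeR adjusted p = 0.802). Wild-type cornea 1, highest for Cryab, was thus not the highest for this chaperone. Hspb7 had 0.848 and 0.987 CPM in transgenic corneas and 0.253, 0.636 and 0.273 CPM in wild-type ones (edgeR adjusted p = 0.777). Genes that share the crystallin name or role without being lens-restricted were led by Crym, a thyroid hormone-binding protein, with 0.964 and 0.796 CPM in transgenic corneas and 0.469, 0.245 and 0.364 CPM in wild-type ones (edgeR adjusted p = 0.749). Aldh1a1, a soluble enzyme of cornea and lens, had 668 and 694 CPM in transgenic corneas and 535, 626 and 549 CPM in wild-type ones (edgeR adjusted p = 0.770). In both, the transgenic values were the higher ones, opposite to the lens crystallins; 7 of the 10 genes listed were tested, 4 above 0, 3 below and 0 called.

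Genes of tissues next to the cornea also varied between libraries, and their summed levels followed other orders than that of the crystallins. Photoreceptor and retina genes summed to 20.7 and 21.9 CPM in transgenic corneas and 27.7, 9.05 and 13.3 CPM in wild-type corneas 1 to 3. Wild-type cornea 1 was again the highest, but the transgenic corneas, lowest for the crystallins, were above wild-type corneas 2 and 3. Of 14 listed genes 13 had counts and 9 were tested. Log2 fold changes were above 0 in 8 of these (6406 of 13304 over all genes tested), with 0 called by edgeR. Pde6a had an edgeR adjusted p of 0.787 and Pde6b of 0.835.

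Pigment epithelium and ciliary genes summed to 12.8 and 16.4 CPM in transgenic corneas and 7.22, 1.52 and 3.60 CPM in wild-type ones. The sum was thus highest in the transgenic corneas, where the crystallins were lowest. Among wild-type corneas it was highest in cornea 1, as were the crystallins. All 6 genes tested of 8 listed were above 0 (6406 of 13304 over all genes tested) and 0 were called by edgeR. Best2, a channel of the ciliary epithelium, had 1.195 and 0.987 CPM in transgenic corneas and 0.144, 0.147 and 0.0911 CPM in wild-type ones (edgeR adjusted p = 0.404), and Rlbp1 an adjusted p of 0.566. Pigment cell genes summed to 247 and 326 CPM in transgenic corneas and 217, 173 and 222 CPM in wild-type ones. Of 9 tested genes 8 were above 0 (6406 of 13304 over all genes tested) and 0 were called by edgeR. Gpnmb, which macrophages also express, had 158 and 159 CPM of that sum in transgenic corneas and 166, 163 and 185 CPM in wild-type ones. Without it the other 8 genes summed to 89.3 and 167 CPM in transgenic corneas and 50.9, 10.2 and 37.1 CPM in wild-type ones. Among wild-type corneas, this sum too was highest in cornea 1. In all 8 both transgenic values lay above every wild-type value. The share of all genes tested with that order was not determined, and the list was chosen with earlier results known. The count therefore describes these libraries only. Trpm1 had 12.5 and 17.7 CPM in transgenic corneas and 7.26, 3.62 and 7.38 CPM in wild-type ones, and Oca2 0.694 and 1.91 CPM in transgenic corneas and 0.325, 0.245 and 0.364 CPM in wild-type ones (edgeR adjusted p = 0.492 for each). Cornea genes themselves, 10 of 10 tested, were split 6 above 0 and 4 below with 0 called; the 2 of smallest p were Col8a2 (log2 fold change 0.36, edgeR adjusted p = 0.543) and Kera (0.29, edgeR adjusted p = 0.703).

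Skeletal muscle genes were read at low levels. Ckm, the creatine kinase of muscle, had 0 and 4 counts in transgenic libraries and 71.98, 0 and 1 counts in wild-type libraries 1 to 3, and Acta1, skeletal actin, had 7 and 11 counts in transgenic libraries and 48, 1 and 5 counts in wild-type ones. Both were chosen after their values were seen. Of 11 genes of the list of 14 with counts, 8 were highest in wild-type cornea 1, 2 in transgenic cornea 1 and 1 in transgenic cornea 2. Over all genes tested, 18.8% were highest in wild-type cornea 1. Tnnt3, a troponin, had 9.25 and 12.99 CPM in transgenic corneas and 9.50, 7.24 and 5.19 CPM in wild-type ones, and Pygm, the glycogen phosphorylase of muscle, had 7.83 and 7.07 CPM in transgenic corneas and 7.62, 4.31 and 4.10 CPM in wild-type ones. Tnnt3 and Pygm were thus highest in a transgenic cornea. Myh4 and Tnni2, also among the more abundant genes of the list, were highest in wild-type cornea 1, at 6.72 and 7.91 CPM. They were chosen after their values were seen. The 11 genes summed to 30.1 and 32.9 CPM in transgenic corneas and 42.4, 26.2 and 19.9 CPM in wild-type ones; 6 were tested, 3 above 0 and 3 below, with 0 called by edgeR (Tnnt3 and Pygm had the smallest p, adjusted p = 0.788 and 0.839). The part of muscle, retina or lens cells in the values of the members was not tested.

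**Figure D5:**
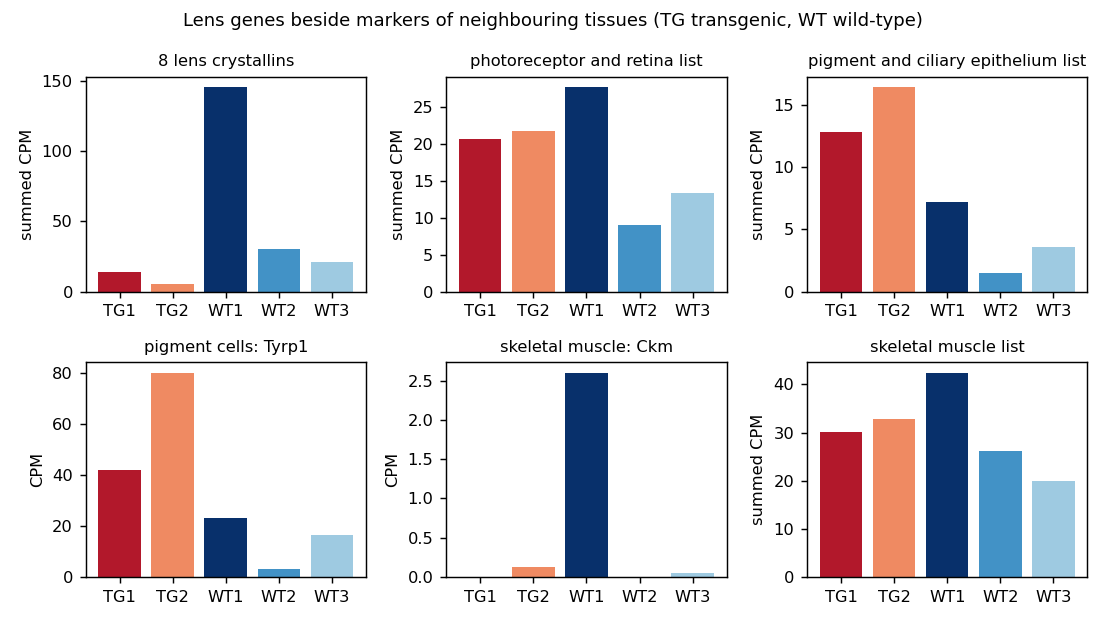
Summed CPM of the 8 lens crystallins and of lists of neighbouring tissues, and CPM of Tyrp1 (pigment cells) and Ckm (skeletal muscle), in each library with transgenic corneas on the left; each bar is 1 library. The crystallin bar of wild-type cornea 1 is 145 CPM, retina genes are also highest there (27.7 CPM), pigment and ciliary epithelium genes are highest in the transgenic corneas (12.8 and 16.4 CPM), and Ckm is near 0 outside wild-type cornea 1.

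The 5 genes outside the members with the profile nearest to the mean of the 9 lens-restricted members over the 5 libraries were Grifin, Krt17, Myl1, RGD1565462 and RGD1308775, among 13575 genes with at least 30 counts. Likeness was measured as the root mean square difference of centred log2(CPM + 0.5) values, which was 0.17 for Grifin and between 0.41 and 0.48 for the other 4. By the same measure Cryba4 stood at 0.19, Crybb2 at 0.53, Cryab at 0.84 and Bfsp1 at 1.00, so Grifin was nearer to the mean profile than any member. Krt17, a keratin of hair follicles and stressed epithelia, had 1.504 and 2.48 CPM in transgenic corneas and 11.9, 3.08 and 3.23 CPM in wild-type corneas 1 to 3. Myl1, a myosin light chain of muscle, had 1 and 0 counts in transgenic libraries and 46, 2 and 0 counts in wild-type ones. Further muscle genes near this profile were Ckm (rank 9 of 13575), Tnnc2 (32), Acta1 (44), Myh4 (111) and Mylpf (242). Tnnt3, Tnni2, Casq1 and Pygm of the same list ranked lower. With 5 libraries such likeness is a description of these libraries.

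In the isoform table each of the 10 members has 1 named isoform, and for 9 of them its counts equal those of the gene. Cryba1 differs by 25.77 counts summed over the libraries: its named isoform has 14 and 0 counts in transgenic libraries and 312, 52 and 23.23 counts in wild-type ones. The 0 in transgenic cornea 2 stands beside 11 counts of the gene, which in the isoform table do not stand under that isoform. In RefSeq, Crybb3 and Crybb2 are neighbours, as are Crybb1 and Cryba4, all 4 on chromosome 12. Wild-type cornea 1 was the highest library for each of these genes, as it was for all 10 members.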

How the data were processed

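RNA of rat cornea was sequenced in 5 libraries. The authors deposited expected counts, whole and fractional, for genes and for isoforms; the values carry no normalization. The submitters' processing notes name RSEM 1.2.28, STAR 2.5.3a, fastp, FastQC, edgeR 3.28.0, DESeq2 1.26.0 and build rn6, without the role or order of each. Reads shared by similar transcripts are divided by such estimates, and no label gives strandedness, so values of near-identical copies and of antisense partners are uncertain. Nothing in the labels says more of the replicates than their genotype and number, so p-values measure the spread between these samples.

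Expected counts were rounded, filtered with filterByExpr (minimum count 10), scaled by TMM and tested for transgenic over wild-type with edgeR 4.0.16 (quasi-likelihood test, R 4.3.3, robust, two-sided, Benjamini-Hochberg over 13304 genes, threshold 0.05). Tested on simulated counts, the procedure recovered most changed genes, but its share of false calls was above the nominal threshold. The SE was taken as the log2 fold change over the root of its F statistic, and CPM uses TMM-scaled library sizes; 3 counts correspond to 0.0955 to 0.147 CPM. Intervals (95%) are exact Poisson or binomial and describe counting error alone, because PCR copies cannot be told from separate molecules here. Alternatives used DESeq2 1.42.0, limma 3.58.1, other filters and scalings, the isoform table, a replicate block and left-out libraries.

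The members and lists were chosen with earlier results of these data known. The rule named all members, the 2 genes of smallest p in each list, lens fibre genes with counts, the 5 nearest profiles and NR3C2; other genes in the text or figures, such as Ckm, Acta1, Pax6, Foxe3, Prox1, Pitx3, Hsf4, Gpnmb, Tyrp1, Krt23 and Nr4a1, were picked with their values in view. Some genes that this rule or a list covers are not reported here. Promoter sequences are from RefSeq (GRCr8); coordinates of genes in rn6 were not used here.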

Additional observations from a re-analysis of the deposited data

How the results depend on the processing

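Of 116 log2 fold changes of members under alternatives, 112 kept their direction and their side of the threshold. The 1 that reversed was Cryab without wild-type cornea 1, its highest library (0.25 against -0.15). With 1 library left out, the value for Cryab ran from -0.32 to 0.25. Why wild-type cornea 1 was the highest was not tested. Calls were gained for Cryba2 by DESeq2 (adjusted p = 0.0139) and, with the replicate number as a block, for Cryba2 (edgeR adjusted p = 0.0419) and Crybb2 (5.7e-04), so 1 and 2 members were called in place of 0; over all alternatives adjusted p ran between 0.0139 and 1.00 for Cryba2 and between 5.7e-04 and 1.00 for Crybb2. Genes called numbered 1 in the main analysis, 52 by DESeq2, 2 without a filter, 2 from the isoform table, 16 with the replicate block and 2 to 36 with 1 library left out (36 without transgenic cornea 1, 5 without transgenic cornea 2, and 6, 4 and 2 without wild-type corneas 1, 2 and 3). The numbers pair no samples as far as the labels say: deviations from group means correlated at 6.3e-04 and -0.11 for numbers 1 and 2. The lens score difference of -1.55 was -1.94 to -0.89 with 1 library left out, the -0.89 being without wild-type cornea 1. The summed ratio of wild-type cornea 1 was 5.04 for the 9 lens-restricted members, 5.66 without Bfsp1 (chosen after seeing the data), and 4.47 to 5.79 with wild-type cornea 3 or 2 left out. Crybb3 and Crybb1 rest on few counts, which limits their ratios. Cryba2, called by DESeq2 and with the replicate block, reached the filter cutoff in only 1 transgenic library and was kept through the wild-type group.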
